A study of Mus musculus with 3 samples.

Results

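The tricarboxylic acid (TCA) cycle, pyruvate and glutamate enzymes are 32 genes that were taken by their symbols from the deposited count tables. All 32 were found among the 41743 symbols of those tables, and all 32 passed the filter on low counts that left 12478 genes for testing. The assay was RIP-seq, which sequences the RNA that comes down with an antibody, in the mouse osteosarcoma line K7M2. The study's title concerns RNA bound by the closed form of ezrin, a protein that links the plasma membrane to actin. There were 2 libraries made with an anti-ezrin antibody (ezrin IP, replicates 1 and 2) and 1 library made with normal mouse IgG (IgG IP), which is the background. Every library came from the same genotype, in which the cells' own ezrin gene was knocked out with CRISPR/Cas9 and T567A mutant ezrin was put back by stable transfection. The labels do not say which promoter drives the transgene, whether the line is 1 clone, or whether replicates 1 and 2 are separate cultures, so p-values rest on a spread that may be technical. A library of input RNA was not analysed here, so each fold below compares one precipitate with another and not with the cells' total RNA.

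The TCA cycle is a ring of reactions in the mitochondrial matrix that oxidises acetyl-CoA and delivers electrons to the respiratory chain. Pyruvate from glycolysis enters it through a carrier in the inner membrane and then either through the pyruvate dehydrogenase complex, which makes acetyl-CoA, or through pyruvate carboxylase, which makes oxaloacetate. Glutamate enters as oxoglutarate, and citrate and malate leave for the cytosol, where they supply acetyl-CoA for lipids and NADPH. All 32 members are encoded in the nucleus and translated in the cytosol, and the proteins that work in mitochondria are imported.

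Counts assigned to genes totalled 19676595 and 16196329 in ezrin IP replicates 1 and 2, against 10124580 in IgG IP. Protein-coding genes held 97.5% and 98.1% of the ezrin IP counts and 74.7% of the IgG IP counts, while Gm26917 and Gm42418, loci that collect ribosomal RNA reads, held 0.122% and 0.198% against 16.5%. The labels name polyA RNA as the molecule yet describe depletion of ribosomal RNA, and which holds for these libraries is not known, so these shares depend on a step that is unsettled. Ezr, the ezrin gene, had 7003 and 5879 counts against 1479, and these do not separate the transgene from the edited gene. Of 9 osteoblast-lineage markers, Col1a1, Col1a2, Sparc, Spp1 and Runx2 were well counted, whereas Ibsp had no count, Bglap 0, 0 and 1, and Sp7 1, 0 and 0. The 9 markers summed to 4623 and 3832 CPM (counts scaled to a common library total) against 2088 CPM, mostly through Col1a2, with 58883 and 37715 counts against 11337. Of the 6 that were tested, edgeR called 3 higher (Col1a2, Sparc, Spp1) and 2 lower, Runx2 (log2 fold −0.73, adjusted p = 0.0104) and Alpl (−1.50, adjusted p = 0.0258, on 28 and 17 counts against 33). Summed macrophage, endothelial, epithelial, B cell and erythroid markers did not exceed 30.4 CPM in any library. Of the muscle markers, Ckm and Myh6 had no count. Ttn had 947 and 982 counts against 1072, or 47.2 and 58.5 CPM against 112 CPM. It was called lower (log2 fold −1.08, edgeR adjusted p = 3.99e-05). Macrophage markers summed to 27.5 and 30.4 against 21.0 CPM, with Ptprc and Adgre1 at 0. These marker sums use the plain library total, whereas the CPM of single genes is also scaled by TMM factors.

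Messages of this pathway were mostly more abundant in the ezrin libraries. By edgeR's quasi-likelihood test, with p-values adjusted by Benjamini-Hochberg over all 12478 genes and called at 0.05, 24 of the 32 members were higher in ezrin IP, 1 was lower and 7 were not called. Over all genes tested, 19.0% were called higher and 17.4% lower. Of the members, 16 were called and at least 2-fold higher, against 9.83% of all genes. The median log2 fold of the members was 0.98, beside −0.02 over all genes tested. The higher calls took in every subunit of the pyruvate dehydrogenase complex, every member of the oxoglutarate and succinyl-CoA steps, the fumarate and malate steps and the aspartate and glutamate enzymes, whereas none of the 4 regulators of pyruvate dehydrogenase was called and the carrier subunit Mpc1 was the lower one. When the other kinds of RNA were left out and only protein-coding genes were scaled and tested, 24 members were again called higher and 1 lower. Over all genes tested in that setting, 2288 were called higher and 1929 lower. The precipitates came from whole cultures, so fewer cells with a message and less of it per cell cannot be told apart, and the folds measure neither.

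**Figure D1:**
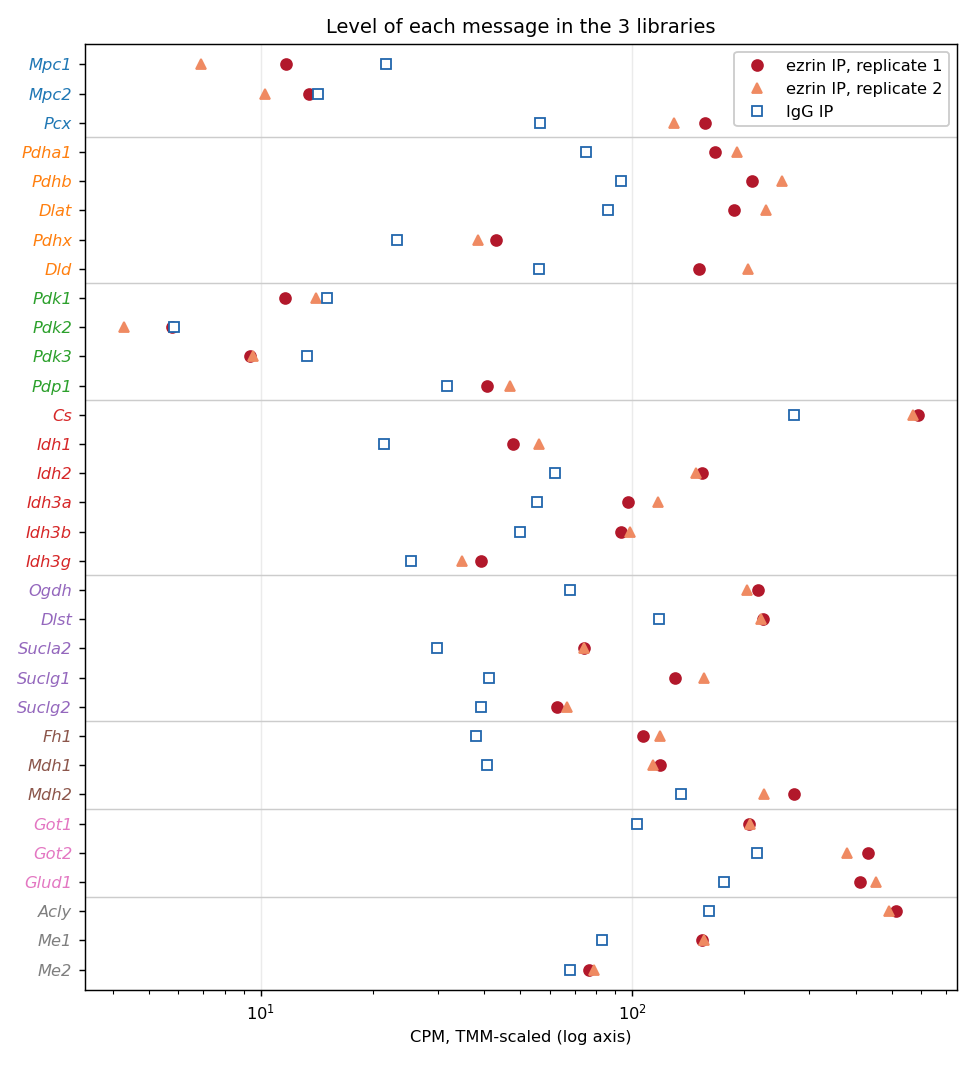
Level of each of the 32 messages in each library, in TMM-scaled CPM on a log axis, with genes in pathway order from the pyruvate carrier at the top to malic enzyme at the bottom; each symbol is 1 library. Both ezrin IP points lie to the right of the IgG IP square for 27 genes and to the left of it for Mpc1, Mpc2, Pdk1, Pdk2 and Pdk3.

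Both ezrin libraries lay above IgG IP for 27 members and below it for 5, and no member had IgG IP between them. Over all genes tested, 42.6% had both ezrin libraries above IgG IP. Members took 0.513% (95% exact binomial interval 0.510 to 0.516) and 0.529% (0.526 to 0.533) of ezrin IP counts, against 0.217% (0.214 to 0.220) of IgG IP counts. Among protein-coding counts alone, which leaves the ribosomal RNA loci out of the total, their share was 0.526% and 0.539% against 0.291%. These intervals cover counting error only. With 2 libraries against 1, an exact permutation test of such a share cannot give a p below 0.333.

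At the entry of pyruvate, the carboxylase was higher and the carrier was not. Pcx, pyruvate carboxylase, had 157 and 130 CPM in ezrin IP replicates 1 and 2 against 56.3 CPM in IgG IP. Both ezrin libraries were above IgG IP, a 2.54-fold difference (log2 fold 1.35, SE 0.26, edgeR adjusted p = 2.65e-06). Reads of Pcx may include some of Lrfn4, which lies within the Pcx locus and had 1794 and 1160 counts against 892, since counting by strand was not stated in the sources used here. Mpc1 and Mpc2 form the mitochondrial pyruvate carrier in the inner membrane. Mpc1 (chromosome 17, 8283787 to 8297667, GRCm38.p6) had 235 and 116 counts against 208, or 11.7 and 6.92 CPM in ezrin IP against 21.7 CPM in IgG IP. Both ezrin values were below IgG IP, and they differed from each other by more than those of any other member. The message was 2.32-fold lower in ezrin IP (log2 fold −1.22, SE 0.28, edgeR adjusted p = 9.82e-05). On log2(RPKM + 1), a scale on which the median of all genes moved up to 0.22, it was at −0.73 and was not called by limma (adjusted p = 0.0599). Mpc2 had 13.5 and 10.3 CPM against 14.2 CPM, below IgG IP in both ezrin libraries but not called (log2 fold −0.26, edgeR adjusted p = 0.515).

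The pyruvate dehydrogenase complex joins a decarboxylase made of alpha and beta subunits (Pdha1, Pdhb), an acetyltransferase core (Dlat), a binding protein that anchors the last enzyme (Pdhx) and a dehydrogenase that reoxidises lipoate (Dld). All 5 messages were higher in ezrin IP. Dld (chromosome 12, 31331562 to 31351471), which also serves the oxoglutarate dehydrogenase complex, had 152 and 205 CPM in ezrin IP against 56.1 CPM in IgG IP. Both ezrin libraries were above IgG IP, replicate 2 the more so, and the difference was 3.18-fold (log2 fold 1.67, SE 0.26, edgeR adjusted p = 5.09e-09). Pdha1 had 167 and 191 CPM against 74.9 CPM, a log2 fold of 1.26. Pdhb had 210 and 253 CPM against 93.3 CPM, a log2 fold of 1.31. Dlat had 188 and 229 CPM against 86.1 CPM, a log2 fold of 1.28. These 3 log2 folds differed by less than the SE of any of them (0.25 each). Pdhx was the least abundant, at 42.9 and 38.4 CPM against 23.2 CPM, and was 1.75-fold higher (log2 fold 0.81, SE 0.27, edgeR adjusted p = 0.0091).

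Levels per length, as the authors' RPKM, let the subunits be set against each other within a library. Of the summed RPKM of the 5 subunits, Pdhb held 28.7% and 28.6% in ezrin IP against 29.1% in IgG IP, Dlat 20.3% and 20.5% against 21.2%, and Pdha1 23.6% and 22.3% against 24.2%. Those proportions were nearly the same in each precipitate. Dld held 21.7% and 24.3% in ezrin IP against 18.4% in IgG IP, and Pdhx 5.75% and 4.26% against 7.11%. For both, the ezrin libraries lay on the same side of IgG IP, and replicate 2 was the farther from it.

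None of the 4 regulators of the complex was called. Pdk1, Pdk2 and Pdk3 are kinases that switch the complex off by phosphorylating the alpha subunit, and Pdp1 is the catalytic subunit of a phosphatase that switches it on again. Pdk1 had 11.6 and 14.1 CPM in ezrin IP against 15.0 CPM in IgG IP (log2 fold −0.23, edgeR adjusted p = 0.554). Pdk2 had 5.78 and 4.29 CPM against 5.85 CPM (log2 fold −0.21, edgeR adjusted p = 0.698), and its 56 IgG IP counts allow 4.42 to 7.60 CPM (95% exact Poisson interval). Pdk3 had 9.37 and 9.54 CPM against 13.3 CPM (log2 fold −0.49, edgeR adjusted p = 0.196). The 3 kinases lay slightly below IgG IP in both ezrin libraries, with SEs of 0.28, 0.38 and 0.30 on the log2 scale, and none passed the test. The signs of Pdk1 and Pdk2 turned on the RPKM scale. Pdp1 had 40.7 and 46.8 CPM against 31.8 CPM, above IgG IP in both ezrin libraries (log2 fold 0.46, edgeR adjusted p = 0.152), and passed on log2(RPKM + 1) (limma adjusted p = 0.0282).

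Levels of the regulators and of the carrier can also be given relative to Pdha1. This ratio uses 1 library at a time and does not depend on a scaling by 1 factor per library. It does keep any trend of fold with level. After cyclic loess, a scaling that removes such trends, the log2 fold was 1.04 for Pdha1 and −0.21 for Pdk1, beside 1.26 and −0.23. The summed RPKM of the 3 kinases was 15.6% and 13.5% of that of Pdha1 in ezrin IP, against 44.7% in IgG IP. In RPKM the kinases' own sum was nearly level, at 5.86 and 5.93 against 5.82 RPKM, while Pdha1 was at 37.6 and 44.1 against 13.0 RPKM. Setting the RPKM of one library against another, unlike the ratio, does depend on the factor of each library. In TMM-scaled CPM each kinase lay below IgG IP in both ezrin libraries. Pdp1 stood at 20.1% and 20.3% of Pdha1 against 35.1%, with its own RPKM larger in ezrin IP (7.58 and 8.94 against 4.58). The 2 carrier messages, whose protein does not act on Pdha1, together stood at 16.6% and 9.22% of Pdha1 against 61.7%. In each case both ezrin libraries lay below IgG IP, by more than they differed from each other, and the single IgG IP library leaves its own spread unknown.

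**Figure D2:**
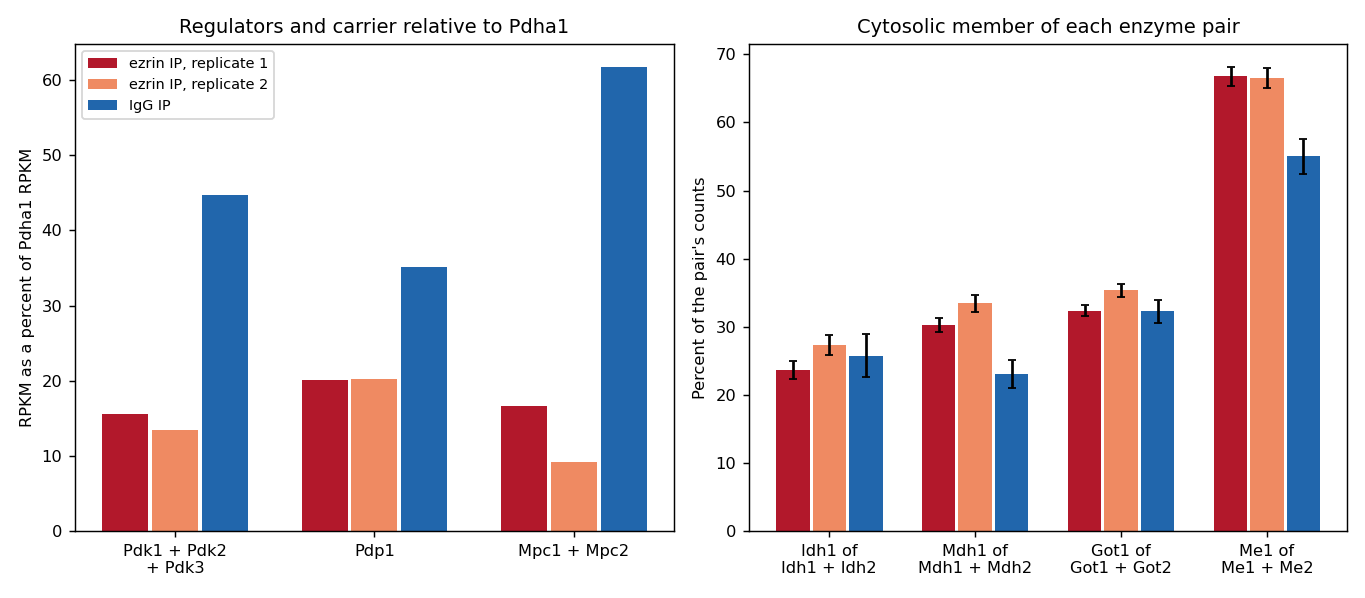
Left, RPKM of the pyruvate dehydrogenase kinases, of the phosphatase Pdp1 and of the pyruvate carrier as a percent of Pdha1 RPKM in the same library. Right, counts of the cytosolic enzyme as a percent of the counts of its pair. Error bars are 95% exact binomial intervals, which cover counting error only and not the spread between libraries. Bars in each cluster are ezrin IP replicate 1, ezrin IP replicate 2 and IgG IP. The kinases reach 15.6% and 13.5% of Pdha1 in ezrin IP and 44.7% in IgG IP, and of the 4 pairs those of Mdh1 and Me1 have both ezrin bars above the IgG IP bar and outside its interval.

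At the citrate and isocitrate steps, 5 of 6 messages were higher. Cs, citrate synthase, which joins acetyl-CoA to oxaloacetate, was the most abundant of all 32 members in CPM, at 587 and 569 CPM in ezrin IP against 273 CPM in IgG IP. Both ezrin libraries lay well above IgG IP and close together, a 2.12-fold difference (log2 fold 1.08, SE 0.23, edgeR adjusted p = 3.1e-05). Idh3a, Idh3b and Idh3g encode the subunits of the NAD-dependent isocitrate dehydrogenase of the cycle. Idh3a had 97.5 and 118 CPM against 55.5 CPM and rose by a log2 fold of 0.95 (edgeR adjusted p = 0.001). Idh3b had 93.1 and 98.4 CPM against 49.96 CPM and rose by 0.94 (edgeR adjusted p = 0.0013). Idh3g, a regulatory subunit, had 39.2 and 34.8 CPM against 25.3 CPM, above IgG IP in both ezrin libraries but short of a call (log2 fold 0.55, edgeR adjusted p = 0.085). It passed with library size as the only scaling (edgeR adjusted p = 0.0342) and on log2(RPKM + 1) (limma adjusted p = 0.0125). Idh1 and Idh2 encode the NADP-dependent enzymes of the cytosol with peroxisomes and of mitochondria. Idh1 had 47.8 and 55.9 CPM against 21.4 CPM, and Idh2 154 and 149 CPM against 61.9 CPM. Their log2 folds were 1.28 and 1.29, and both were called.

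The steps from oxoglutarate to succinate held the highest fold of all members. Suclg1 (chromosome 6, 73248505 to 73276907) encodes the alpha subunit that both forms of succinyl-CoA ligase share, and it had 130 and 156 CPM in ezrin IP against 41.1 CPM in IgG IP. Both ezrin libraries were above IgG IP, a 3.48-fold difference (log2 fold 1.80, SE 0.26, edgeR adjusted p = 5.01e-10), and 255 of the 12478 genes tested had a higher log2 fold. Sucla2 and Suclg2 encode the beta subunits of the ADP-forming and the GDP-forming ligase. Sucla2 had 74.20 and 74.17 CPM against 29.8 CPM (log2 fold 1.32, SE 0.27), and Suclg2 had 62.9 and 66.5 CPM against 39.1 CPM (log2 fold 0.73, SE 0.26, edgeR adjusted p = 0.0168). Of the summed RPKM of the 2 beta subunits, Sucla2 held 57.8% and 56.4% in ezrin IP against 46.9% in IgG IP. The ADP-forming subunit thus had the larger per-length level in both ezrin libraries and the smaller one in IgG IP. The order in IgG IP rests on 285 counts of Sucla2 and 374 of Suclg2 in 1 library and was not tested.

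Ogdh and Dlst encode the decarboxylase and the succinyltransferase core of the oxoglutarate dehydrogenase complex. Ogdh (chromosome 11, 6291597 to 6359094) had 219 and 203 CPM in ezrin IP against 67.8 CPM in IgG IP. It was 3.11-fold higher (log2 fold 1.64, SE 0.26, edgeR adjusted p = 6.94e-09). Dlst had 225 and 222 CPM against 118 CPM and was 1.89-fold higher (log2 fold 0.92, SE 0.24, edgeR adjusted p = 0.00104). The gene model of Dlst, as implied by counts and RPKM, was the longest among the members at 9559 bases. The length of the message itself was not measured. With Dld, all parts of the complex were higher in ezrin IP.

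**Figure D3:**
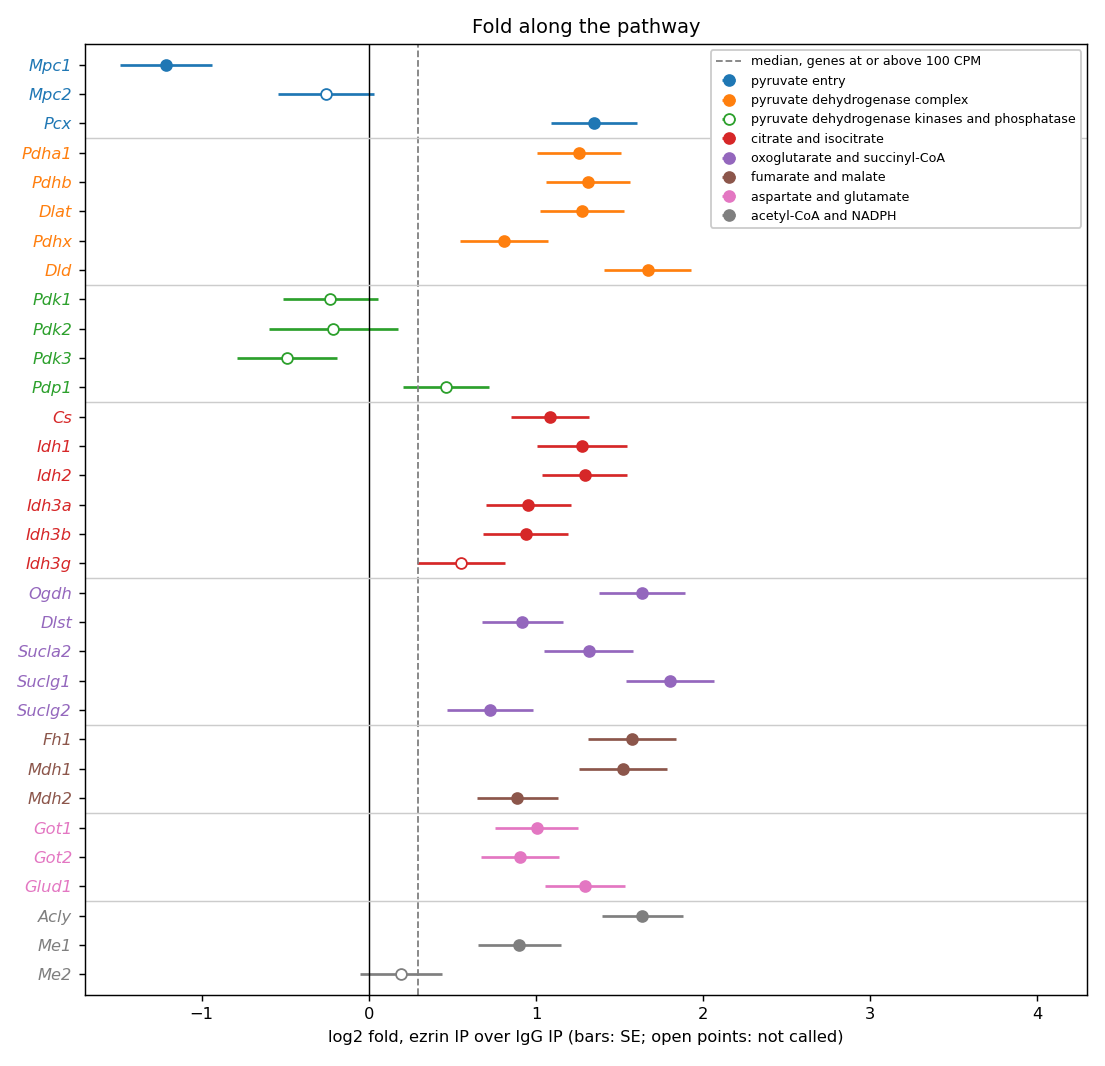
Fitted log2 fold of each member, ezrin IP over IgG IP, with its standard error as the bar, in pathway order and coloured by step; filled points were called by edgeR and open points were not, and the dashed line is the median log2 fold of all genes tested at or above 100 CPM (0.30). The enzymes of the pyruvate dehydrogenase complex and the cycle lie between 0.55 and 1.80, to the right of the kinases (−0.49 to −0.21) and of the carrier subunits (−1.22 and −0.26).

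At the fumarate and malate steps all 3 messages were higher. Fh1, the fumarate hydratase that makes malate, had 107 and 119 CPM in ezrin IP against 37.8 CPM in IgG IP. It was 2.97-fold higher (log2 fold 1.57, SE 0.26, edgeR adjusted p = 6.7e-08). Mdh2 is the malate dehydrogenase of the cycle, and Mdh1 is its cytosolic counterpart in the malate-aspartate shuttle, which carries reducing equivalents into mitochondria. Mdh1 had 119 and 114 CPM against 40.5 CPM (log2 fold 1.52, SE 0.26), and Mdh2 had 273 and 227 CPM against 135 CPM (log2 fold 0.89, SE 0.24). Both were called and neither overlapped IgG IP.

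The aspartate and glutamate enzymes were also higher throughout. Glud1, glutamate dehydrogenase, which turns glutamate into oxoglutarate, had 410 and 453 CPM in ezrin IP against 176 CPM in IgG IP. It was 2.45-fold higher (log2 fold 1.29, SE 0.24, edgeR adjusted p = 1.24e-06). Got1 and Got2 are the cytosolic and mitochondrial aspartate aminotransferases of the shuttle. Got1 had 206 and 208 CPM against 103 CPM, a log2 fold of 1.004. Got2 had 431 and 380 CPM against 216 CPM, a log2 fold of 0.91. After cyclic loess, a scaling that removes trends with level, Got2 was at 0.51 and was not called (limma adjusted p = 0.0595).

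Of the enzymes that use citrate and malate for acetyl-CoA and NADPH, Acly and Me1 were higher and Me2 was not called. Acly (chromosome 11, 100476352 to 100528000) encodes ATP citrate lyase, which splits citrate in the cytosol to give acetyl-CoA for lipid synthesis. It had 513 and 490 CPM in ezrin IP against 161 CPM in IgG IP, a 3.11-fold difference (log2 fold 1.64, SE 0.24, edgeR adjusted p = 6.79e-10). Me1, the cytosolic malic enzyme, had 154 and 156 CPM against 83.1 CPM (log2 fold 0.90, SE 0.25, edgeR adjusted p = 0.00165). Me2, a mitochondrial malic enzyme, had 76.7 and 78.7 CPM against 67.9 CPM. The ezrin libraries lay above IgG IP by less than 1 SE (log2 fold 0.19, SE 0.24, edgeR adjusted p = 0.564), though Me2 was counted as deeply as Sucla2, which was called.

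Cytosolic and mitochondrial forms of the same enzyme can be set against each other as a share of counts within a library. Mdh1 made up 30.3% (95% exact binomial interval 29.3 to 31.3) and 33.5% (32.2 to 34.7) of Mdh1 and Mdh2 counts in ezrin IP, against 23.1% (21.1 to 25.2) in IgG IP. Me1 made up 66.7% (65.4 to 68.1) and 66.5% (65.0 to 68.0) of Me1 and Me2 counts in ezrin IP, against 55.0% (52.4 to 57.6) in IgG IP. For these 2 pairs the cytosolic share was larger in both ezrin libraries than in IgG IP. Idh1 made up 23.7% and 27.3% of its pair against 25.7%, and Got1 32.4% and 35.4% against 32.3%. For Idh the ezrin libraries fell on either side of IgG IP, and for Got the nearer one lay inside its interval (30.6 to 34.0). All 5 cytosolic members (Idh1, Mdh1, Got1, Acly, Me1) were called higher, with a median log2 fold of 1.28, and 19 of the 27 mitochondrial members, with a median of 0.94. Over all genes tested, 19.0% were called higher, with 38.5% at or above a mean of 100 CPM and 14.8% below. The least abundant cytosolic member had a mean of 41.7 CPM over the libraries, and the least abundant mitochondrial one 5.31 CPM. Compartment was thus not separated from level. With so few cytosolic members the medians are given as a description. Transcripts made inside mitochondria took 0.0120% and 0.0163% of all counts in ezrin IP against 0.358% in IgG IP. Like the shares of protein-coding and ribosomal RNA reads given earlier, these depend on the unsettled step of polyA selection or ribosomal RNA depletion.

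Fold varied with level among the members. The 16 members with a mean of at least 100 CPM over the 3 libraries were all called higher, with a median log2 fold of 1.28, and the 16 below 100 CPM held 8 of the higher calls, the lower call and all 7 uncalled members, with a median of 0.64. Among all genes tested, 38.5% of those at or above 100 CPM were called higher, with a median log2 fold of 0.30, and 14.8% of those below. Spearman's rho between fold and mean CPM was 0.59 over the 32 members and 0.26 over the 12478 genes tested. Fold and level share the same counts. The mean CPM also includes both ezrin libraries, so a high ezrin value helps a gene to reach 100 CPM. Suclg1, for example, was at 41.1 CPM in IgG IP, and Dld at 56.1 CPM. The split at 100 CPM and rho are therefore descriptions only. The implied length of the transcript models ran from 2082 (Mpc1) to 9559 bases (Dlst) among members, and rho between fold and length was 0.03, beside −0.05 over all genes. After cyclic loess, 23 members were called higher, against 18.2% of all genes, and the median log2 fold was 0.78. On log2(RPKM + 1), 26 were called higher by limma, against 29.9% of all genes. How far level contributes to the calls was not tested further.

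**Figure D4:**
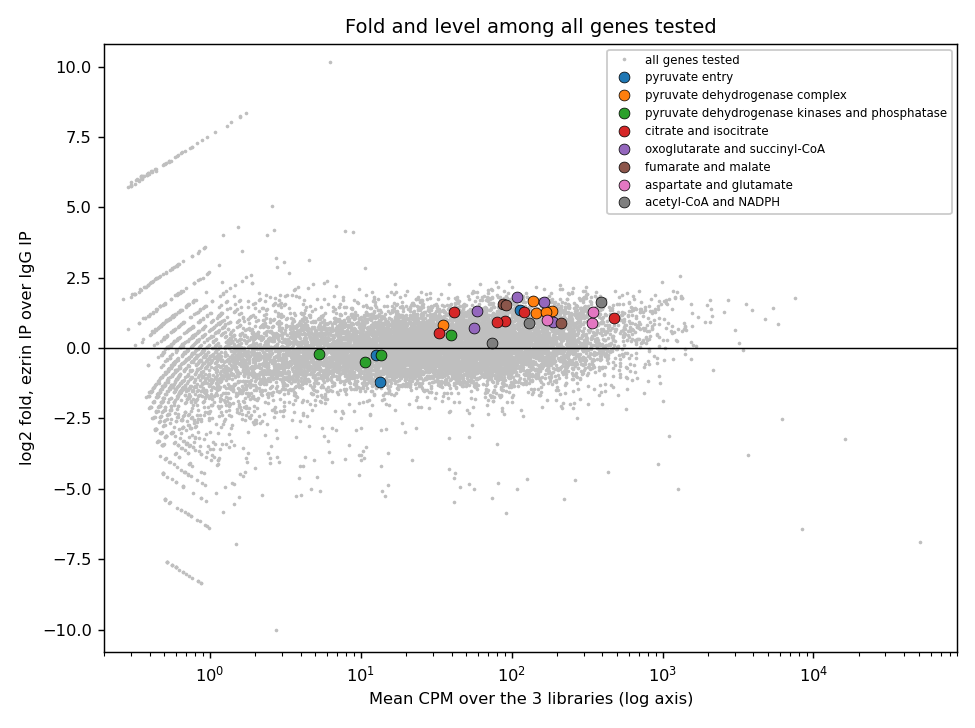
Fitted log2 fold, ezrin IP over IgG IP, against the mean CPM over the 3 libraries on a log axis, for all 12478 genes tested (grey) and the 32 members (coloured by step). Members above 100 CPM lie between 0.89 and 1.80, and the kinases and carrier subunits lie at 5.31 to 13.6 CPM and below 0.

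The ezrin libraries lay close together on most members. The median absolute log2 ratio of ezrin IP replicate 1 to replicate 2 was 0.17 over the members, 0.18 over all genes at or above 100 CPM and 0.23 over all genes tested. Replicate 1 was the higher for 15 members and replicate 2 for 17. The largest distance was that of Mpc1, 1.69-fold higher in replicate 1, and among called enzymes that of Dld, 1.35-fold higher in replicate 2. Both comparisons use the same IgG IP library, and the median log2 ratio to it was 1.003 in replicate 1 and 1.03 in replicate 2.

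Levels per length put glutamate, citrate, aspartate and malate enzymes at the top. In ezrin IP, Glud1 averaged 87.2 ± 7.68 RPKM, Cs 85.0 ± 0.254, Acly 80.7 ± 1.13, Got2 71.3 ± 5.05, Got1 69.3 ± 1.71, Mdh2 59.6 ± 6.74 and Pdhb 51.1 ± 7.61 RPKM (SD, n = 2). Their values in IgG IP were 27.1, 30.6, 19.8, 29.1, 26.4, 24.6 and 15.7 RPKM. Glud1 and Cs did not differ beyond their spread, nor did Got2 and Got1, or Mdh2 and Pdhb. Cs rather than Glud1 headed the order in IgG IP, and Acly came sixth there. At the bottom, Mpc2 (1.37 ± 0.24 RPKM), Pdk2 (1.35 ± 0.26) and Pdk1 (1.41 ± 0.22) could not be told from each other in RPKM, with 1.26, 1.20 and 1.26 RPKM in IgG IP. Their RPKM rests on gene models of an implied 7344, 3163 and 7779 bases. In TMM-scaled CPM they averaged 11.9, 5.04 and 12.8 in ezrin IP.

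A wider list of 43 genes that border the pathway was looked up as well. Of these, 41 were in the tables and 35 were tested, and 14 were higher and 2 lower in ezrin IP, with a median log2 fold of 0.43. Over all genes tested, 19.0% were called higher and 17.4% lower, and 38.5% were called higher at or above 100 CPM and 14.8% below. Acss2 (log2 fold 1.99), which makes acetyl-CoA from acetate, was higher, and so was Aco1 (1.79), the cytosolic aconitase that doubles as an iron-responsive RNA-binding protein. Of succinate dehydrogenase, which is also part of the respiratory chain, Sdha (1.51) and Sdhd (0.90) were higher, and Sdhb (0.59) and Sdhc (0.26) were not called. Sdhb passed with library size as the only scaling (edgeR adjusted p = 0.0208), with every counted gene tested (0.0349) and on both RPKM scales (limma adjusted p = 0.00623 and 0.00788), and Sdhc on the RPKM scales (0.0365 and 0.041). Lactate dehydrogenase Ldha (1.55), which draws pyruvate away from mitochondria, had 40125 and 32537 counts against 6443, and Ldhb had 1, 2 and 1. Lias (1.53) makes the lipoate that the dehydrogenase complexes carry and was higher, whereas Lipt2 (−1.45), the transferase that supplies its substrate, was lower on 37 and 36 counts against 52 and was not called by DESeq2 (adjusted p = 0.189).

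Among genes of mitochondrial exchange and of amino acids made from the cycle, the aspartate-glutamate carriers Slc25a12 (log2 fold 1.46) and Slc25a13 (1.23) were higher. The citrate carrier Slc25a1 (0.43), the oxoglutarate carrier Slc25a11 (−0.22) and the dicarboxylate carrier Slc25a10 (−0.16) were not called. Pck2 (1.78), the mitochondrial enzyme that makes phosphoenolpyruvate, was higher. Oat (1.78) and Aldh18a1 (1.22), which connect glutamate with ornithine and proline, were higher too, as was asparagine synthetase Asns (1.11). Glutamine synthetase Glul (0.30) was not called. On log2(RPKM + 1), limma called Glul (adjusted p = 0.0453) and Slc25a1 (adjusted p = 0.0282) higher. Of the alanine aminotransferases, Gpt (−0.86) was lower, though not by DESeq2 (adjusted p = 0.197) or by limma on log2(RPKM + 1) (−0.37, adjusted p = 0.231) and log2(RPKM + 0.1) (−0.48, adjusted p = 0.227), and Gpt2 (0.06) was not called. The regulators of the pyruvate dehydrogenase phosphatase side, Pdp2 (0.04) and Pdpr (−0.42), were not called, and Pdk4 was nearly uncounted, at 1, 1 and 2 counts.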

How the data were processed

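RNA from 2 ezrin IP libraries and 1 IgG IP library was analysed. For each library the authors deposited a table of raw counts by gene symbol and one of RPKM, the reads scaled for a gene's length and the library's depth, per the file headers. Per the submitters' processing notes the build was GRCm38. The sources used here do not give the aligner, counter, annotation, strand or read total. Gene lengths were taken from counts divided by RPKM, with the total set on small RNA genes of known length (39 to 49 genes per library).

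Counts were tested with edgeR 4.0.16 (R 4.3.3): filterByExpr by group, TMM (factors 1.02, 1.04 and 0.946), quasi-likelihood test, Benjamini-Hochberg over 12478 genes, threshold 0.05. The fit had 1 residual degree of freedom, and its infinite prior degrees of freedom replaced each gene's spread by a pooled one. The IgG library was assumed to vary like the ezrin libraries. SE is the log2 fold over the square root of F. Alternatives used DESeq2 1.42.0, limma 3.58.1 on log2 RPKM with 1 or 0.1 added, cyclic loess, other scalings and filters, and single ezrin libraries (0.5 CPM added). Symbols, biotypes and coordinates came from RefSeq's table of GRCm38.p6, which matched all 32 members. In it 12 members overlap another gene, of which 6 overlap one with a count. Named genes were every member and the called genes of the wider list, with other genes of that list and marker genes named after their values were seen. A few genes of the wider list are not reported here. The members and lists were chosen with earlier results of these data known.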

Additional observations from a re-analysis of the deposited data

How the results depend on the processing

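No paired analysis was possible because the groups share a single replicate number. Of the 25 calls among members, 23, all higher, were kept under all 9 alternatives with a test. The exceptions were Got2, lost after cyclic loess (log2 fold 0.51), and Mpc1, lost on log2(RPKM + 1) and log2(RPKM + 0.1) (−0.73 and −0.86), so that 0 members were called lower on either RPKM scale by limma. The count of members called higher ranged between 23 and 26. In the wider list it ranged between 13 and 19, with 0 to 2 genes lower. The members' median log2 fold was 1.10 with library size only, 1.07 with every counted gene, 0.89 at a mean of at least 10 CPM, 0.78 after cyclic loess, and 1.31 and 1.36 on log2(RPKM + 1) and log2(RPKM + 0.1), where the median of all genes was 0.22 and 0.34. It was 1.003 to 1.07 with 1 ezrin library left out. Uncalled members changed sign only on the RPKM scales: Mpc2 was at 0.069 and 0.11, Pdk1 at 0.0896 and 0.14, and Pdk2 at 0.0908 and 0.15, with 1 and 0.1 added. Over all genes, calls were 3734 and 3745 higher and 964 and 843 lower on those scales, and 1101 lower with DESeq2. The causes were not tested. The single IgG library limits every fold, and the low counts of the kinases and carrier limit theirs most.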
